A study of Homo sapiens with 12 samples.

Results

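The high mobility group chromatin proteins are the HMGA, HMGB and HMGN families, and 10 of their genes in the deposited table were taken by name: HMGA1, HMGA2, HMGB1, HMGB2, HMGB3, HMGN1, HMGN2, HMGN3, HMGN4 and HMGN5. They are 10 of 57773 genes in that table, and the 156 annotated HMGA, HMGB and HMGN pseudogenes were kept apart. RNA of RPE1 cells, an immortalised human retinal pigment epithelial line, was sequenced in 12 libraries, 3 for each of 4 groups. The cultures received siRNA against Anillin (ANLN), a scaffold of the contractile ring, or a non-targeting siRNA for 24 h. Living cells were then stained with a Hoechst dye (2 µg/mL, 60 min) and sorted by DNA content. The groups are called Anillin 4N, Anillin 2N, control 4N and control 2N, after the siRNA and the sorted fraction. All of them come from this 1 line and carry the same transfection and dye, and the labels do not say whether the 3 libraries of a group came from separate cultures, so each p-value speaks only of the spread among these libraries. In control cultures cells of 4N DNA content are mainly those in G2 or mitosis; after failed cytokinesis, cells that left mitosis undivided also have 4N, and the files do not separate these.

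HMG proteins are small, abundant, non-histone proteins that bend, coat or loosen chromatin without being enzymes. HMGA proteins bind the minor groove of AT-rich DNA through AT-hook motifs, HMGB proteins bend DNA with a pair of HMG boxes, and HMGN proteins bind the nucleosome core and compete with linker histone H1. HMGA2 is an embryonic gene held down by let-7 microRNAs, HMGB1 also acts as an alarm signal outside the cell, and HMGB2 is known as a gene of proliferating cells that is lost in senescence.

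Promoter windows of 250 bases before the start of transcription were at hand for 8 of the 10 genes, 12 windows in all (RefSeq, GRCh38.p14), and none for HMGA2 and HMGB2. Stretches of HMGB3, HMGB1 and HMGN2 are shown with that of HMGN4, which fell least of the genes that fell in Anillin 4N against control 4N, because CCAAT boxes and cell cycle motifs are known from promoters of genes of G2 and mitosis. Capitals mark CCAAT (or ATTGG, its other strand) and the hexamers TTTGAA and TTTAAA. Each stretch was cut where it met an annotated exon of its own gene, and of several windows the one with most CCAAT boxes was taken. Those of HMGB3 and HMGB1 lie inside the annotated genes, before starts downstream of the first.
HMGB3, chrX:150983085-150983285, plus strand: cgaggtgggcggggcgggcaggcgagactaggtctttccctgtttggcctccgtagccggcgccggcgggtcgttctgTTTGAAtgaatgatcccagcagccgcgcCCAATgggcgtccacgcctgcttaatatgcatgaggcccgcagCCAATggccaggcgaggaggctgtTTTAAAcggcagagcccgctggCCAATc
HMGB1, chr13:30465966-30466186, minus strand: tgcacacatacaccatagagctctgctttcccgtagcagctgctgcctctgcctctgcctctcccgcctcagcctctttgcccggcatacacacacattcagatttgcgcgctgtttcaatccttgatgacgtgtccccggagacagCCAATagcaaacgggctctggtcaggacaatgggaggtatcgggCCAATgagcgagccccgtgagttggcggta
HMGN2, chr1:26472190-26472439, plus strand: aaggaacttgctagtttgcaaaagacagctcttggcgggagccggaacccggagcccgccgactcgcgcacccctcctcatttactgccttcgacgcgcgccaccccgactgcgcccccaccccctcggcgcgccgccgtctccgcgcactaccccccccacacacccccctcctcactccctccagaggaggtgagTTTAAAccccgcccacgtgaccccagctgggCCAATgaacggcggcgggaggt
HMGN4, chr6:26538116-26538365, plus strand: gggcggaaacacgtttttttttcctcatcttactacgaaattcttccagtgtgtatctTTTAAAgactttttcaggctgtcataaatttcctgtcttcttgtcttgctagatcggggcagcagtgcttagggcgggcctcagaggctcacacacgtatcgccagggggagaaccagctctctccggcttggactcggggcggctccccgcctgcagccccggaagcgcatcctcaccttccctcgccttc
The HMGB3 stretch holds 3 CCAAT boxes and 1 copy of each of the other two motifs, and the HMGB1 window holds 3 boxes, of which 2 are in the stretch shown. The other two HMGB1 windows hold 1 box and 0, and the other HMGB3 window holds 0. The HMGN2 window holds 1 box and 1 copy of TTTAAA, and the HMGN4 window holds only the hexamer shown in capitals. Boxes were also in windows of genes that did not pass the test in that comparison: 2 in the window of HMGN3 and 1 in 1 of the windows of HMGA1. The window of HMGN1, which fell, holds 2 boxes, and that of HMGN5 holds 0. The CCAAT box was found in 7 of the 12 windows of HMG genes, against 32.0% of all 35116 promoter windows of this length, and 3 or more copies in 2.93% of them. The hexamer TTTGAA was found in 13.3% of all windows, and its near relative TTTAAA was found in 11.3%. Absent from all HMG windows were the E2F core TTCCCGC, present in 5.52% of all windows, the E2F core TTGGCGC, present in 2.56% of them, and the hexamer TTCGAA, present in 1.19%. Motifs were searched on both strands and were picked with the expression data known; a CCAAT box read on the other strand can share letters with TTGGCGC. A match is a match of letters only.

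Levels are given as RPKM, the deposited unit, which here divides reads by the genomic span of a gene, introns included. Reads in genes, recovered from the steps in the RPKM values, numbered 17412742 to 61760454 per library. ANLN was at 0.0989, 0.0855 and 0.0700 RPKM in Anillin 4N, with 0.0850, 0.0582 and 0.0395 in Anillin 2N, against 8.42, 7.45 and 7.98 in control 4N and 1.88, 1.25 and 1.66 in control 2N. Of 12 markers of retinal pigment epithelium, 3 passed the filter on low values: KRT18 at a mean of 109.1 RPKM, KRT8 at 8.53 and OTX2 at 3.76. The visual cycle gene RPE65 was at 0.0393 RPKM and TTR was listed at 0. Of that list the libraries thus carried RNA of the keratins and OTX2, with the other markers below the filter. CD68 was the only one of 8 blood cell markers past the filter, and none of 10 markers of other epithelia and muscle passed. The summed RPKM of 10 genes of G2 and mitosis (CCNB1, CDK1, TOP2A, MKI67, CDC20, UBE2C, BIRC5, CCNA2, PLK1 and AURKB) was 42.0 to 45.7 in Anillin 4N and 13.1 to 14.2 in Anillin 2N, against 279 to 321 in control 4N and 34.3 to 52.7 in control 2N. Control 2N replicate 2 had the lowest sum of its group, and it was also the lowest of that group for HMGB1, HMGB2, HMGB3, HMGN1, HMGN2 and HMGA1. The 10 HMG genes together took 0.218% ± 0.00461 of reads in genes in Anillin 4N, with 0.177% ± 0.00447 in Anillin 2N, against 0.287% ± 0.0116 in control 4N and 0.196% ± 0.0156 in control 2N (SD, n = 3 each).

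Set on a common scale, RPM (reads scaled to all reads in genes of the library) per kilobase of annotated exon, HMGA1 had the highest mean level over the 12 libraries, 295.7 ± 43.1, followed by HMGN2 at 129 ± 64.2 (SD, n = 12 for both). HMGB1 averaged 48.6 on this scale, HMGN3 41.9, HMGB2 39.7, HMGN4 38.2, HMGN1 35.6, HMGA2 23.6 and HMGB3 13.7. HMGN5 was lowest at 2.78. The scale divides by all annotated exon bases of a gene: 1014 for HMGN3, 5102 for HMGN1, 7723 for HMGB1 and 15403 for HMGA2. The order therefore depends on the annotation: HMGN3 had 18212 reads over the 12 libraries and HMGN1 had 79961. This order pools groups that differ: HMGB2 was at rank 8 of 10 in Anillin 4N (25.2) and in Anillin 2N (13.0), against rank 3 in control 4N (97.3) and rank 7 in control 2N (23.2). As the ratio of the highest to the lowest library the spread within a gene was widest for HMGB2, at 8.83 (11.7 to 104 on this scale), and narrowest for HMGN4, at 1.20 (34.7 to 41.5), while the SD was widest for HMGN2.

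**Figure D1:**
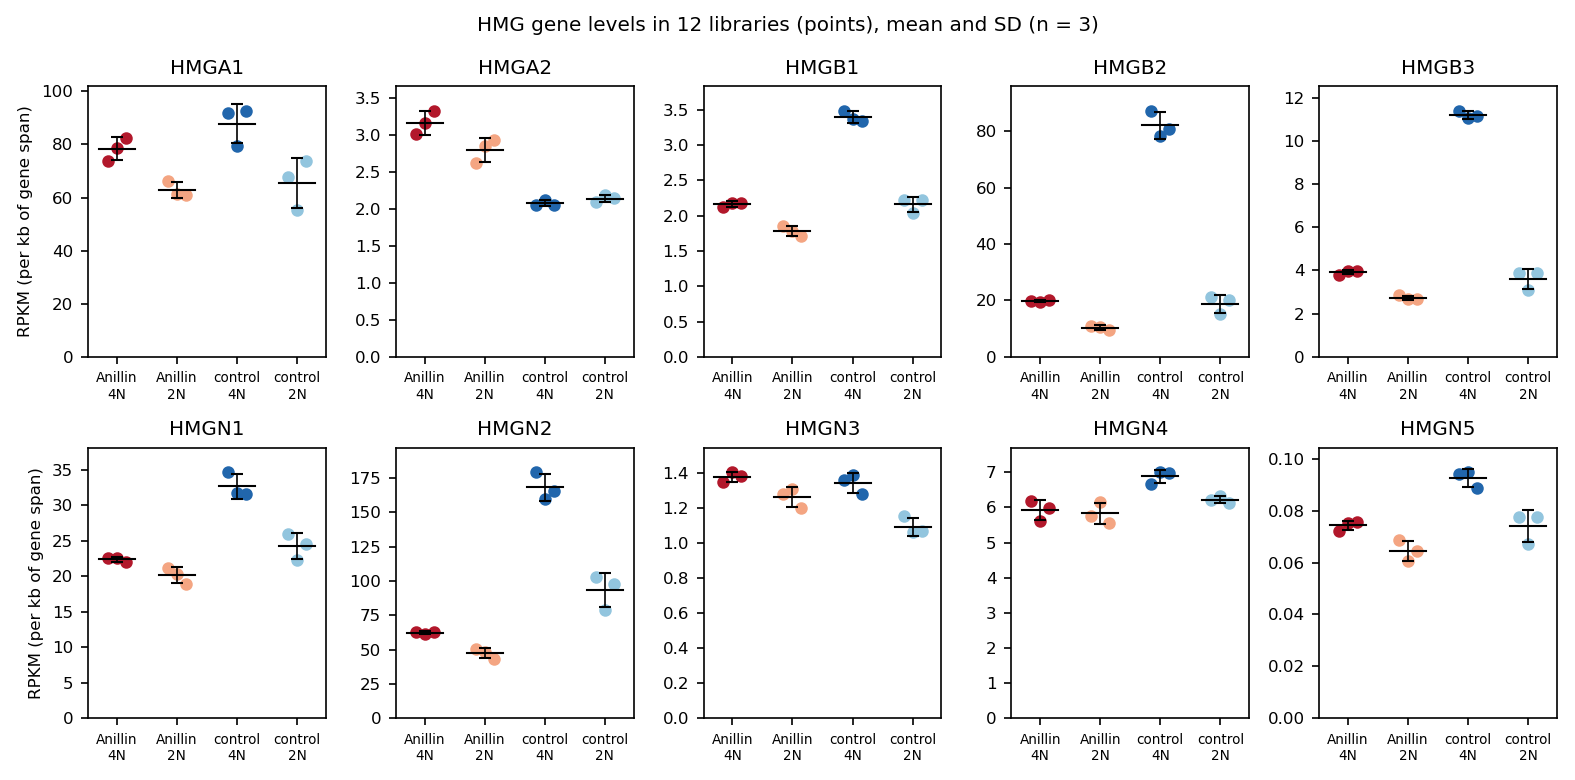
RPKM (per kilobase of gene span) of the 10 HMG genes in Anillin 4N, Anillin 2N, control 4N and control 2N; points are the 3 libraries of a group, long bars the mean and error bars the SD. HMGB2, HMGB3 and HMGN2 stand highest in control 4N, HMGA2 stands higher in both Anillin groups than in either control group, and HMGN4 changes little.

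The first question was how 4N cells made under Anillin siRNA differ from 4N cells of a control culture. Tests were limma-trend on log2(RPKM + 0.5) over 12892 genes, with Benjamini-Hochberg adjustment and a threshold of 0.05; 9 HMG genes entered, because HMGN5 lay below the filter of 0.5 RPKM in 3 libraries. Of these 9 genes, 6 fell in Anillin 4N against control 4N and 1 rose, where 31.5% of all genes tested were lower and 20.0% higher. That split moved to 24.7% lower and 27.2% higher with quantile scaling, and to 17.7% lower and 29.03% higher of 22404 genes with limma-voom on the recovered reads. The median log2 change of the 9 was -0.54 and that of all genes tested -0.05. HMGB2, HMGN2 and HMGB3 fell most, HMGB1 and HMGN1 less and HMGN4 least, while HMGA2 rose. In bulk libraries, fewer cells of a type and less RNA per cell cannot be told apart. All 10 genes of G2 and mitosis listed above also fell in this comparison, with a median log2 change of -2.61, and so did all 11 tested of 12 genes of G1/S and DNA replication, with a median of -1.32. Their part in the HMG differences was not tested.

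HMGB2 (chr4:173331695-173335125, minus strand, GENCODE 29 on GRCh38), a DNA-bending protein with a pair of HMG boxes, had 19.8, 19.4 and 20.2 RPKM in Anillin 4N, with 10.9, 10.7 and 9.39 in Anillin 2N, against 87.4, 78.3 and 80.8 in control 4N and 21.2, 15.2 and 20.0 in control 2N. The 3 control 4N libraries stood far above the other 9, the Anillin 2N libraries were the lowest, and Anillin 4N overlapped control 2N. The mean RPKM of HMGB2 in Anillin 4N was 0.241 times that in control 4N. The log2 change of the fit was -2.02 ± 0.11 (SE, adjusted p = 4.4e-07) and ranked 61st from the lowest of 12892 genes. In 2N cells the log2 change with Anillin siRNA was -0.82 ± 0.11 (adjusted p = 0.00063). Between 4N and 2N cells the log2 difference was 0.91 ± 0.11 with Anillin siRNA (adjusted p = 0.0015) and 2.11 ± 0.11 in control cultures (adjusted p = 5.3e-07). Against control 2N, Anillin 4N differed by 0.09 ± 0.11 (adjusted p = 0.59), and by -0.06 without control 2N replicate 2 (adjusted p = 0.59). HMGB2 thus stood in the order control 4N, Anillin 4N and control 2N, which did not differ beyond their spread, and Anillin 2N.

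HMGB3 (chrX:150980509-150990775, plus strand), the family member known from blood stem and progenitor cells, whose promoter stretch above holds 3 CCAAT boxes, kept the same order of groups at a lower level. It had 3.80, 3.96 and 3.96 RPKM in Anillin 4N, with 2.84, 2.67 and 2.70 in Anillin 2N, against 11.4, 11.0 and 11.1 in control 4N and 3.88, 3.09 and 3.87 in control 2N. Control 4N was again apart from all other libraries, and the Anillin 4N values lay within or just above those of control 2N. The log2 change was -1.41 ± 0.07 in Anillin 4N against control 4N (SE, adjusted p = 2.2e-07) and -0.34 ± 0.07 in Anillin 2N against control 2N (adjusted p = 0.0051). It was 0.45 ± 0.07 for Anillin 4N against Anillin 2N (adjusted p = 0.0059) and 1.51 ± 0.07 for control 4N against control 2N (adjusted p = 1.9e-07). Anillin 4N and control 2N differed by 0.11 ± 0.07 (adjusted p = 0.27).

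HMGB1 (chr13:30456704-30617597, minus strand), the ubiquitous member and extracellular alarm signal, moved in the same directions over a narrower range. Its values were 2.12, 2.18 and 2.19 RPKM in Anillin 4N, with 1.85, 1.78 and 1.71 in Anillin 2N, against 3.49, 3.36 and 3.34 in control 4N and 2.22, 2.04 and 2.23 in control 2N. Control 4N was highest without overlap, Anillin 2N lowest without overlap, and Anillin 4N lay among the control 2N libraries. The mean RPKM of Anillin 4N was 0.636 times that of control 4N. On log2(RPKM + 0.5), a scale that understates changes of low genes, the change was -0.55 ± 0.04 (SE, adjusted p = 1.6e-06). Anillin 2N was lower than control 2N by a log2 change of -0.22 ± 0.04 (adjusted p = 0.0017). The log2 difference between 4N and 2N was 0.22 ± 0.04 with Anillin siRNA (adjusted p = 0.0087) and 0.55 ± 0.04 in control cultures (adjusted p = 3.3e-06). HMGB4, an HMGB gene known from testis, was listed at 0 in every library.

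HMGN2 (chr1:26472450-26475972, plus strand), which binds nucleosomes and opposes H1, was the HMGN gene with the largest differences. It had 63.0, 61.2 and 62.9 RPKM in Anillin 4N, with 50.7, 48.0 and 43.5 in Anillin 2N, against 179, 160.1 and 166 in control 4N and 103, 79.1 and 98.0 in control 2N. Every Anillin library lay below every control library of either DNA content, which was not so for the HMGB genes. The log2 change was -1.42 ± 0.09 in Anillin 4N against control 4N (SE, adjusted p = 1.5e-06) and -0.96 ± 0.09 in Anillin 2N against control 2N (adjusted p = 0.00012). Control 4N exceeded control 2N by 0.86 ± 0.09 (adjusted p = 0.00010). Anillin 4N exceeded Anillin 2N by 0.39 ± 0.09, which missed the threshold (adjusted p = 0.052) and passed it on the recovered reads (limma-voom, log2 change 0.41 ± 0.08, adjusted p = 0.0023). Against control 2N, Anillin 4N was lower by a log2 change of -0.57 ± 0.09 (adjusted p = 0.0017), where HMGB2, HMGB3 and HMGB1 did not pass the test; whether HMGN2 differs from them in this was not tested.

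HMGN1 (chr21:39342315-39349647, minus strand), the close relative of HMGN2 in the Down syndrome region, had 22.5, 22.6 and 22.0 RPKM in Anillin 4N, with 21.1, 20.3 and 18.9 in Anillin 2N, against 34.7, 31.7 and 31.6 in control 4N and 26.0, 22.3 and 24.6 in control 2N. Control 4N stood apart and the other 3 groups lay close together. Anillin 4N was lower than control 4N by a log2 change of -0.54 ± 0.06 (SE, adjusted p = 6.7e-05), Anillin 2N lower than control 2N by -0.26 ± 0.06 (adjusted p = 0.012), and control 4N higher than control 2N by 0.42 ± 0.06 (adjusted p = 0.00071). The fall in 2N cells was lost when the fit held only those 2 groups (adjusted p = 0.061). Anillin 4N and Anillin 2N differed by 0.15 ± 0.06 (adjusted p = 0.27).

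The other HMGN genes changed by less. HMGN3 (chr6:79201245-79234738, minus strand), a nucleosome binder known from mouse brain and eye, had 1.35, 1.40 and 1.38 RPKM in Anillin 4N, with 1.28, 1.31 and 1.20 in Anillin 2N, against 1.36, 1.39 and 1.28 in control 4N and 1.15, 1.06 and 1.07 in control 2N. Control 2N was the one low group. HMGN3 was higher in Anillin 4N than in the control 2N libraries (log2 change 0.24 ± 0.04, adjusted p = 0.0011), in control 4N than in control 2N (0.21 ± 0.04, adjusted p = 0.0016) and in Anillin 2N than in control 2N (0.14 ± 0.04, adjusted p = 0.015), and did not pass between the 4N groups (0.03 ± 0.04, adjusted p = 0.55). The call in 2N cells was lost without Anillin 2N replicate 2 (adjusted p = 0.059), without control 2N replicate 3 (adjusted p = 0.052) and in the fit of those 2 groups alone. HMGN4 (chr6:26538405-26546254, plus strand), a processed copy of HMGN2, had 6.18, 5.61 and 5.98 RPKM in Anillin 4N, with 5.77, 6.16 and 5.56 in Anillin 2N, against 6.66, 7.0 and 6.98 in control 4N and 6.21, 6.32 and 6.11 in control 2N. Its groups lay within a narrow band, with control 4N highest. Its fall in Anillin 4N against control 4N (log2 change -0.20 ± 0.05, adjusted p = 0.0043) did not pass on the recovered reads (limma-voom, -0.12 ± 0.06, adjusted p = 0.097), and its rise in control 4N against control 2N (0.14 ± 0.05, adjusted p = 0.040) was lost without any 1 of those 6 libraries. HMGN5 (chrX:81113701-81201942, minus strand), which binds nucleosomes of euchromatin, had 117, 120 and 262 reads in Anillin 4N, with 288, 219 and 128 in Anillin 2N, against 199, 373 and 341 in control 4N and 313, 167 and 422 in control 2N. These are 6.62, 6.89 and 6.74 RPM in Anillin 4N, with 6.13, 5.47 and 5.75 in Anillin 2N, against 7.98, 8.05 and 7.44 in control 4N and 6.80, 5.97 and 6.83 in control 2N. HMGN5 was highest in control 4N without overlap; on the recovered reads it was higher there than in control 2N (limma-voom, log2 change 0.24 ± 0.08, adjusted p = 0.033), a call lost without control 4N replicate 1 (adjusted p = 0.076), control 4N replicate 2 (adjusted p = 0.10) or control 2N replicate 2 (adjusted p = 0.10). Its difference between the 4N groups did not pass (-0.21 ± 0.10, adjusted p = 0.085).

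HMGA2 (chr12:65824131-65966295, plus strand), an AT-hook protein of embryonic and tumour cells, was the HMG gene that rose with Anillin siRNA at both DNA contents under each setting run. It had 3.01, 3.16 and 3.33 RPKM in Anillin 4N, with 2.62, 2.85 and 2.94 in Anillin 2N, against 2.06, 2.13 and 2.05 in control 4N and 2.09, 2.19 and 2.15 in control 2N. Each Anillin library lay above each control library, while the control fractions overlapped. The mean RPKM of Anillin 4N was 1.52 times that of control 4N. On log2(RPKM + 0.5), a scale that understates changes of low genes, the change was 0.51 ± 0.04 (SE, adjusted p = 8.3e-06). It ranked 661st from the highest of 12892 genes. Anillin 2N was higher than control 2N by a log2 change of 0.32 ± 0.04 (adjusted p = 0.00063) and Anillin 4N higher than control 2N by 0.47 ± 0.04 (adjusted p = 5.5e-05). Control 4N and control 2N differed by -0.03 ± 0.04 (adjusted p = 0.56). Anillin 4N exceeded Anillin 2N by 0.15 ± 0.04, which did not pass (adjusted p = 0.098) but did on the recovered reads (limma-voom, 0.20 ± 0.05, adjusted p = 0.022). On the recovered reads the changes with Anillin siRNA were 0.71 ± 0.05 in 4N cells (limma-voom, adjusted p = 5.4e-10) and 0.41 ± 0.05 in 2N cells (adjusted p = 3.1e-06). The 3 annotated genes that overlap HMGA2, among them HMGA2-AS1 and RPSAP52, held reads equal to 1.29% of its own, and counting is not stated to use strand.

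HMGA1 (chr6:34236873-34246231, plus strand), the AT-hook protein common in proliferating cells, differed by DNA content in control cultures and did not pass the test for the siRNA. Its values were 73.9, 78.7 and 82.4 RPKM in Anillin 4N, with 66.4, 61.5 and 60.9 in Anillin 2N, against 91.6, 79.3 and 92.7 in control 4N and 67.9, 55.1 and 73.6 in control 2N. The 4N libraries of each treatment lay above its 2N libraries, and the treatments overlapped at both DNA contents. Control 4N exceeded control 2N by a log2 change of 0.43 ± 0.10 (SE, adjusted p = 0.0094), a call lost in the fit of only those groups. Anillin 4N exceeded Anillin 2N by 0.31 ± 0.10, which did not pass (adjusted p = 0.15) but did on the recovered reads (limma-voom, 0.34 ± 0.08, adjusted p = 0.015). The change with Anillin siRNA was -0.16 ± 0.10 in 4N cells (adjusted p = 0.21) and -0.05 ± 0.10 in 2N cells (adjusted p = 0.77).

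**Figure D2:**
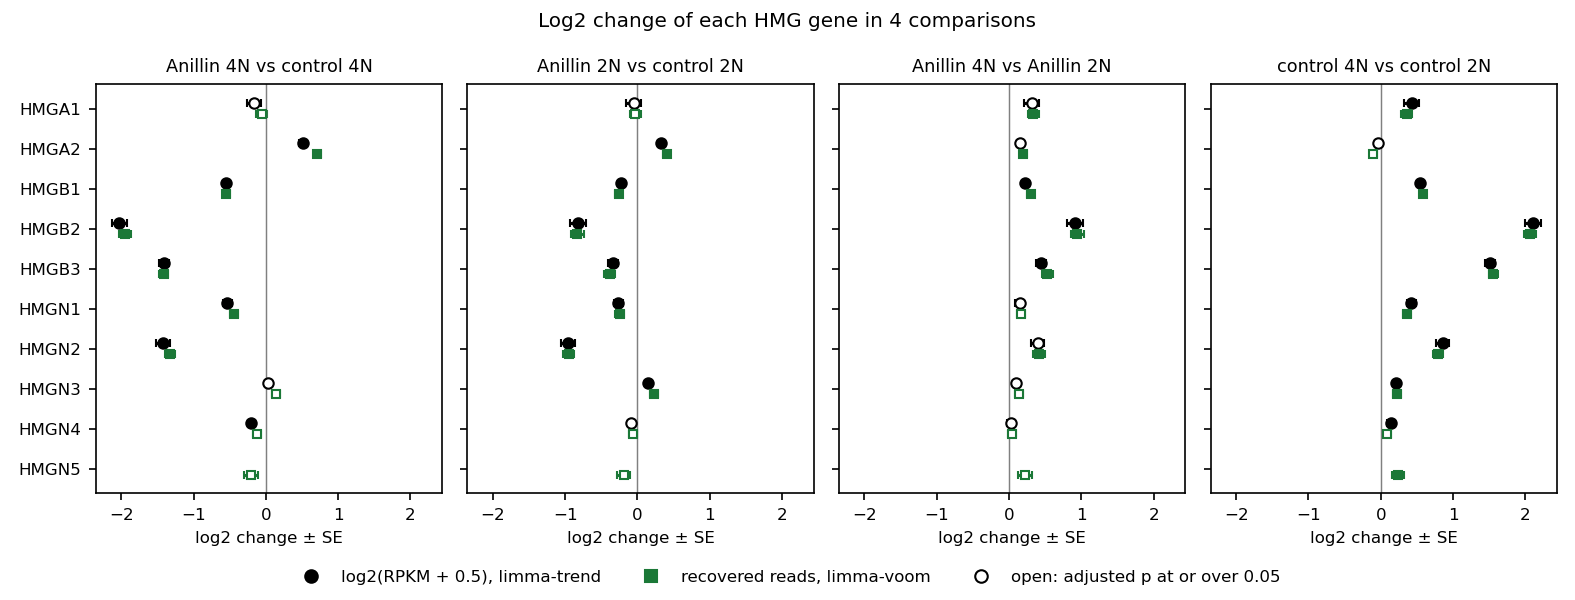
Log2 change ± SE of each HMG gene in 4 comparisons, from limma-trend on log2(RPKM + 0.5) (black circles) and from limma-voom on recovered reads (green squares); open symbols have an adjusted p at or over 0.05. HMGB2, HMGB3 and HMGN2 are farthest left of 0 for Anillin 4N against control 4N, and HMGA2 is the one gene with filled symbols right of 0 there.

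The second question was which HMG genes differ by DNA content. In control cultures 8 of the 9 tested genes were higher in 4N than in 2N cells and none was lower, where 23.9% of all genes tested were higher and 13.2% lower (16.3% and 19.1% with quantile scaling). The exception was HMGA2. Of the 8, HMGN4 passed narrowly (adjusted p = 0.040) and did not pass with quantile scaling (adjusted p = 0.86) or limma-voom (adjusted p = 0.20). Leaving out any 1 library of these groups gave 7 genes. The median log2 difference was 0.43 for the 9 genes and 0.05 for all genes tested. With Anillin siRNA, 3 of the 9, namely HMGB1, HMGB2 and HMGB3, were higher in 4N than in 2N cells, and none was lower, where 2.61% of all genes tested were higher and 0.970% lower (2.40% and 1.505% with quantile scaling). On the recovered reads 6 genes were higher, the others being HMGA1, HMGA2 and HMGN2, where 2.98% of 22404 genes were. The libraries of Anillin 4N lay above those of Anillin 2N without overlap for 9 of the 10 genes, HMGN4 being the exception, where 15.2% of all genes tested did so. With both DNA contents at 2N, 5 of the 9 were lower with Anillin siRNA (HMGB1, HMGB2, HMGB3, HMGN1 and HMGN2) and 2 were higher (HMGA2 and HMGN3), where 17.1% of all genes tested were lower and 11.4% higher (14.7% and 15.1% with quantile scaling). Between Anillin 4N and control 2N, 1 of the 9 was lower, HMGN2, and 2 were higher, HMGA2 and HMGN3, where 15.8% of all genes tested were lower and 14.1% higher. Between Anillin 2N and control 4N, the groups at the ends of most orders, 7 were lower and HMGA2 was higher, where 33.6% of all genes tested were lower and 20.1% higher (24.3% and 29.5% with quantile scaling); HMGB2 differed most, at a log2 change of -2.93 ± 0.11 (SE, adjusted p = 2.4e-08). These comparisons share libraries with each other.

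Whether the siRNA effect itself differed between 4N and 2N cells was tested with the interaction term, the log2 change in 4N cells minus that in 2N cells. It passed for 4 of the 9 genes, all negative, where it was negative and past the threshold for 10.7% of all genes tested and positive for 4.93%. For the 10 genes of G2 and mitosis it was negative and past the threshold for 9 and positive for 0, with a median of -1.25. Fewer cells of a type and less RNA per cell cannot be told apart here either. The interaction was -1.20 ± 0.16 for HMGB2 (SE, adjusted p = 0.00094), -1.07 ± 0.10 for HMGB3 (adjusted p = 0.00011) and -0.33 ± 0.05 for HMGB1 (adjusted p = 0.0028). That of HMGN2, -0.46 ± 0.13, passed narrowly (adjusted p = 0.043) and was lost without a filter on low values and on leaving out each of 8 of the 12 libraries in turn, with adjusted p-values up to 0.105. It held without Anillin 2N replicate 3, control 4N replicate 2, or replicate 1 or 2 of control 2N. HMGA2 was at 0.19 ± 0.06 (adjusted p = 0.068) and passed on the recovered reads (limma-voom, 0.30 ± 0.07, adjusted p = 0.0052). The median interaction of all genes moved up there too, to 0.084 against -0.037 on RPKM. On the recovered reads the median of all genes in the comparison of the 4N groups moved to 0.11, against -0.05 on RPKM, so small differences such as those of HMGN3 and HMGN4 are near that shift.

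**Figure D3:**
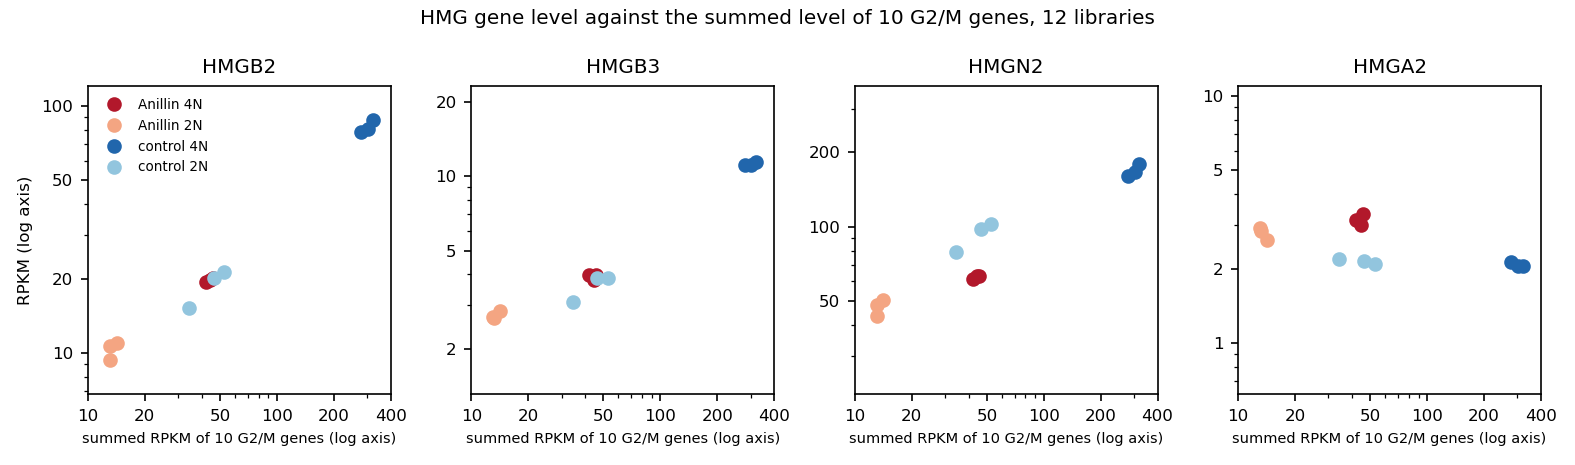
RPKM of HMGB2, HMGB3, HMGN2 and HMGA2 against the summed RPKM of 10 genes of G2 and mitosis in each of the 12 libraries, both on log axes spanning the same number of decades for each gene. Anillin 4N and control 2N libraries sit at like sums, 42.0 to 45.7 and 34.3 to 52.7; there HMGB2 and HMGB3 are also alike, while HMGN2 is lower and HMGA2 higher in Anillin 4N.

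The plot against the genes of G2 and mitosis sets the HMG genes beside that list library by library. Anillin 4N and control 2N had overlapping sums of those genes, and the list's median log2 difference between them was 0.05, with 1 of 10 genes higher and 2 lower. At these like sums HMGN2 averaged 62.4 ± 1.05 RPKM in Anillin 4N and 93.3 ± 12.5 in control 2N, and HMGA2 averaged 3.17 ± 0.161 in Anillin 4N and 2.14 ± 0.0486 in control 2N (SD, n = 3 each). The genes of G1/S and DNA replication were not alike there: 10 of 11 tested were lower in Anillin 4N, set against control 2N, with a median log2 change of -0.97. Their summed RPKM was 29.4 to 32.6 in Anillin 4N and 25.2 to 27.1 in Anillin 2N, against 87.6 to 110 in control 4N and 42.5 to 64.8 in control 2N. From high to low, these sums had control 4N first, then control 2N, then Anillin 4N, with Anillin 2N last. The group means of HMGN2, HMGN1 and HMGN4 had the same order. For HMGB1 the middle groups could not be ordered: control 2N and Anillin 4N both averaged 2.16 RPKM (limma-trend, adjusted p = 0.999). In RPM per kilobase of exon its Anillin 4N mean was the higher, 45.8 against 44.5 in control 2N. For HMGB1, HMGN1 and HMGN4 the control 2N and Anillin 4N libraries overlapped. Whether the likeness has a common cause was not tested.

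The genes whose pattern over the 12 libraries was most like that of a member were ranked among 3712 protein-coding genes with a mean of at least 2 RPKM, by Pearson's r of the log2 values. For HMGB2 these were AURKB (r = 0.998), IQGAP3, CCNB2, CCNB1 and NEK2, all with r of at least 0.997. For HMGN2 they were MACROH2A1 (r = 0.999), RRM2, PTMA, TUBA1B and BIRC5, with r of at least 0.993. For HMGA2 they were ANGPTL2 (r = 0.987), ZNF385A, KHNYN, TNFRSF10B and PLXNB1, with r of at least 0.971. MACROH2A1, which encodes a repressive histone variant, averaged 2.50 ± 0.00599 RPKM in Anillin 4N, with 2.25 ± 0.0570 in Anillin 2N, against 3.69 ± 0.0987 in control 4N and 2.92 ± 0.165 in control 2N, and ANGPTL2, a secreted angiopoietin-like protein, averaged 3.46 ± 0.167 in Anillin 4N, with 2.74 ± 0.210 in Anillin 2N, against 1.19 ± 0.0192 in control 4N and 1.16 ± 0.0587 in control 2N (SD, n = 3 each). The 12 libraries fall into groups, so r mainly compares 4 group means.

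HMG genes have many processed pseudogenes, and reads can be split between near-identical copies. Of the 156 annotated pseudogenes, 100 had reads. Those of HMGB1 held reads equal to 45.9% of the HMGB1 reads over all libraries, between 42.8% and 48.3% in single libraries. The share was 14.5% for HMGN2, 12.2% for HMGN1, 6.42% for HMGB3, 1.81% for HMGA1 and 0.0809% for HMGB2, and 0 for the 1 annotated pseudogene of HMGN3. Values of HMGB1, HMGN1 and HMGN2 are therefore uncertain in level. The pseudogene reads moved with the gene: the log2 ratio of Anillin 4N over control 4N in RPM was -0.59 for the HMGB1 pseudogenes and -0.55 for HMGB1, -1.44 for the HMGN2 pseudogenes and -1.33 for HMGN2, and -1.18 for the HMGB3 pseudogenes and -1.41 for HMGB3. Of 40 pseudogenes past the filter, 29 were lower and 0 higher in Anillin 4N against control 4N, with a median log2 change of -0.70, and 26 were higher in control 4N than in control 2N and 0 lower. With the pseudogene reads added to those of the gene, the log2 change of Anillin 4N against control 4N was -0.56 for HMGB1 (limma-voom, adjusted p = 8.6e-09) and -1.34 for HMGN2 (adjusted p = 2.2e-11).

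**Figure D4:**
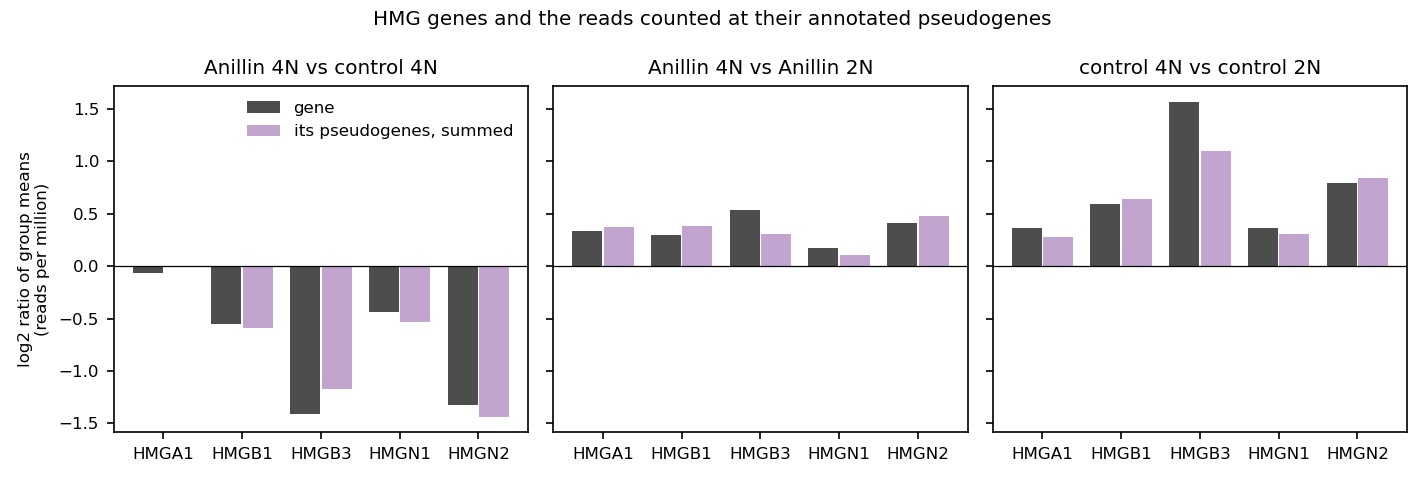
Log2 ratio of group means in RPM for 5 HMG genes (dark bars) and for the sum of their annotated pseudogenes (light bars), in Anillin 4N against control 4N, Anillin 4N against Anillin 2N and control 4N against control 2N. The bars of a pair differ by little for HMGB1 and HMGN2, at -0.55 and -0.59 and at -1.33 and -1.44 in the first panel, and by more for HMGB3.

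Genes that work with HMG proteins or resemble them were read in the same comparison of Anillin 4N against control 4N, where 31.5% of all genes tested were lower and 20.0% higher. Among linker histones, which HMGN proteins displace, H1-2 rose (log2 change 0.66 ± 0.08, SE, adjusted p = 9.8e-05) and H1-10 fell (-0.39 ± 0.13, adjusted p = 0.026). Among 24 other proteins with an HMG box, 15 were tested, of which 9 fell and 4 rose. The largest falls were those of TFAM, which packages mitochondrial DNA (-0.73 ± 0.05, adjusted p = 2.0e-06), SSRP1, a subunit of the histone chaperone FACT (-0.61 ± 0.08, adjusted p = 0.00015), and HMG20B, a subunit of a histone demethylase complex (-0.45 ± 0.07, adjusted p = 0.00028). The largest rises were those of SOX4, a transcription factor (0.94 ± 0.11, adjusted p = 7.7e-05), HBP1, a cell cycle repressor (0.60 ± 0.07, adjusted p = 0.00010), and CIC, a repressor downstream of receptor kinases (0.39 ± 0.07, adjusted p = 0.0013). Having an HMG box did not go with 1 direction.

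Of the 5 genes of the SET complex, a nuclear assembly that holds HMGB2 protein, 4 fell and none rose: SET, a histone chaperone, by -0.72 ± 0.06 (log2 change, SE, adjusted p = 5.8e-06), NME1 by -0.43 ± 0.12 (adjusted p = 0.010) and ANP32A by -0.31 ± 0.04 (adjusted p = 8.0e-05) among them, while APEX1, a DNA repair endonuclease, was at -0.11 (adjusted p = 0.11). Of 9 genes for HMGB1 receptors and export, 4 were tested. XPO1, the exportin that carries HMGB1 out of the nucleus, fell (-0.70 ± 0.04, adjusted p = 5.0e-07), the receptor gene AGER rose slightly (0.19 ± 0.07, adjusted p = 0.041), and TLR4 and TLR9 did not pass. Of 8 genes linked to let-7 and HMGA2, which include let-7 targets as well as regulators, 2 were tested. IGF2BP3, an RNA-binding protein that is a let-7 target like HMGA2, was higher by 0.13 ± 0.03 (adjusted p = 0.0059). DICER1, which makes mature microRNAs, did not pass (0.02 ± 0.04, adjusted p = 0.74). LIN28A, a let-7 inhibitor, averaged 0.0115 RPKM and was not tested.

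Since HMGB2 loss and HMGA proteins are both known from senescent cells, genes used to describe senescence were read as well. In Anillin 4N against control 4N, 2 of the tested genes reported here rose, 2 fell and 2 did not pass. Of all genes tested there, 20.0% were higher and 31.5% lower. CDKN1A, the p53-driven inhibitor of CDKs, rose by 1.44 ± 0.06 (log2 change, SE, adjusted p = 1.1e-07) and CDKN2B by 0.20 ± 0.07 (adjusted p = 0.044). LMNB1, the lamin lost in senescence, fell by a log2 change of -1.62 ± 0.07 (adjusted p = 1.3e-07), and IL6, a secreted cytokine of that state, by -0.49 ± 0.09 (adjusted p = 0.0013). CDKN2A, the locus of p16, was at 0.09 ± 0.05 (adjusted p = 0.16) and CXCL8 at -0.59 (adjusted p = 0.097). CDKN1A averaged 85.2 ± 1.56 RPKM in Anillin 4N, with 42.7 ± 2.02 in Anillin 2N, against 31.1 ± 2.70 in control 4N and 27.0 ± 1.13 in control 2N (SD, n = 3 each). Its group means, like those of HMGA2, were highest in Anillin 4N, next in Anillin 2N and lowest in the controls. For HMGA2 the difference between Anillin 4N and Anillin 2N did not pass (limma-trend, adjusted p = 0.098).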

How the data were processed

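The authors deposited 1 table of RPKM values, 57773 gene identifiers by 12 libraries. The submitters' processing notes list CASAVA 1.8.2, TopHat2, edgeR and hg19 with no role; annotation, counting tool and strand setting were not given in the sources used here. The labels name both a stranded mRNA kit and ribosomal depletion. Gene names and coordinates came from GENCODE 29 (GRCh38, later than hg19) and a gene name table, for all but 5435 identifiers.

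RPKM values divided whole reads by the library total and the genomic span. Reads were recovered for all 38571 genes above 0 within 0.01 read, 29238 with the GENCODE span and 9333 with an implied one, as for HMGB1 and HMGN3. A further scaling between libraries was 0.951 to 1.04, and it differed by group. It was 0.951 to 0.962 in control 4N, 0.996 to 1.007 in control 2N, 1.011 to 1.021 in Anillin 2N and 1.011 to 1.039 in Anillin 4N. The fits on recovered reads left this scaling out.

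Genes that reached 0.5 RPKM in 3 or more libraries were fitted with limma-trend on log2(RPKM + 0.5) (limma 3.58.1, R 4.3.3), 1 mean per group, two-sided, Benjamini-Hochberg adjusted over 12892 genes. The scale understates changes of low genes. The alternatives were pseudocounts of 0.1 and 1, no filter, limma-voom on recovered reads (at least 10 reads in 3 libraries, 22404 genes), log2 RPM of those reads, quantile and median-of-ratios scaling, only the groups compared, and each library left out. Adding pseudogene reads, and testing HMGN5 with limma-voom, were chosen after seeing the data, as were the promoter motifs. Pipelines were tested on simulated data. Tables and figures used Python 3.11.15, pandas 2.3.3, numpy 2.4.6 and matplotlib 3.10.9. All 10 HMG genes were named, with up to 3 largest rises and falls per companion list among genes past the threshold in Anillin 4N against control 4N, except list members not reported here; APEX1, TLR4, TLR9, DICER1, LIN28A, CDKN2A and CXCL8 were named as list members that did not pass or were not tested. Members and lists were chosen with earlier results of these data known.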

Additional observations from a re-analysis of the deposited data

Results flagged for a closer look

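The change with Anillin siRNA differed between 4N and 2N cells for 4 HMG genes, by the interaction term of the limma-trend fit. The difference of the log2 changes, 4N minus 2N, was -1.20 for HMGB2, -1.07 for HMGB3, -0.46 for HMGN2 and -0.33 for HMGB1. That of HMGN2 passed narrowly (adjusted p = 0.043) and was lost without a filter on low values and on leaving out most of the single libraries. HMGB2, for example, changed by -2.02 in 4N cells and -0.82 in 2N cells. Of the 10 genes of G2 and mitosis, 9 also had a negative interaction past the threshold. Groups of 3 libraries were too small to test single libraries for standing apart.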

How the results depend on the processing

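No paired analysis was possible because no label ties a library of 1 group to a library of another. Under the alternatives, 965 of 1045 values of single members kept their direction and their side of the threshold, 35 lost a call, 24 gained one and 21 changed sign. The HMGB1, HMGB2, HMGB3, HMGN1 and HMGN2 falls and the HMGA2 rise in Anillin 4N against control 4N passed under each. Counts of all genes cover 38571 genes without a filter and 22404 with voom or log2 RPM, against 12892, so shares stand beside them. For Anillin 4N against control 4N, genes called higher numbered 3945 (10.2%) without a filter, 6505 (29.03%) with voom and 6766 (30.2%) with log2 RPM, against 2582 (20.0%), and log2 RPM called 2 members higher. For Anillin 4N against Anillin 2N, voom called 668 (2.98%) higher and 263 (1.17%) lower, log2 RPM 786 (3.51%) and 341 (1.52%), against 336 (2.61%) and 125 (0.970%); quantile scaling called 194 lower and the fit of only these groups 81. Voom, log2 RPM and voom with pseudogene reads each called 6 members higher there, against 3. For control 4N against control 2N, genes called lower numbered 5143 (23.0%) with voom and 4950 (22.1%) with log2 RPM, against 1703 (13.2%). For Anillin 2N against control 2N, genes called higher numbered 3186 (14.2%) with voom, 2795 (12.5%) with log2 RPM and 937 (7.27%) in the fit of only these groups, which called 1410 lower and 1 member higher, against 1473 (11.4%), 2209 and 2. For Anillin 4N against control 2N, 3591 (16.0%, voom) and 3641 (16.3%, log2 RPM) genes were higher, against 1815 (14.1%). For Anillin 2N against control 4N, 4301 genes (11.2%) were higher without a filter, 6835 (30.5%) with voom and 6630 (29.6%) with log2 RPM, against 2591 (20.1%). For the interaction, voom called 2294 (10.2%) and log2 RPM 2440 (10.9%) genes higher, against 636 (4.93%), and these, quantile scaling and voom with pseudogene reads called 1 member higher, HMGA2, against 0. The cause of the shifts in share was not tested.

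Leaving out 1 library at a time gave 190 to 253 genes higher and 50 to 95 lower for Anillin 4N against Anillin 2N, 1102 to 1632 lower for control 4N against control 2N (1102 without control 4N replicate 1), 370 to 651 higher for the interaction, and 1 or 2 members higher for Anillin 2N against control 2N (1 without Anillin 2N replicate 2 or control 2N replicate 3). For control 4N against control 2N it gave 7 members higher each time, against 8 with all libraries.

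The sign changes were of values that passed no test. In Anillin 4N against Anillin 2N, HMGN4 was at -0.018 with quantile scaling and at -0.0095 to 0.058 with 1 library left out. In Anillin 2N against control 2N, HMGA1 was at -0.17 to 0.039 with 1 library left out. In Anillin 4N against control 2N, HMGB1 was at 7.8e-05 with a pseudocount of 0.1, 0.040 with voom, 0.041 with log2 RPM, 0.0036 with median-of-ratios scaling, 0.043 with voom and pseudogene reads and -0.033 to 0.017 with 1 library left out, HMGB2 was at -0.057 to 0.18 and HMGN5 at -0.012 to 0.067. In Anillin 2N against control 4N, HMGN3 was at 0.0025 with voom, with or without pseudogene reads, and 0.013 with quantile scaling. In the interaction, HMGA1 was at -0.20 to 0.0056 and HMGN5 at -0.065 to 0.037 with 1 library left out. Members with few reads, HMGN5 above all, limit what small changes could be seen.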
